A study of Mus musculus with 4 samples.

Results

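Granzymes are serine proteases stored in the cytotoxic granules of CD8+ T cells and NK cells, and perforin is the pore-forming protein released with them. The genes described here are the 9 granzyme genes *Gzma*, *Gzmb*, *Gzmc*, *Gzmd*, *Gzme*, *Gzmf*, *Gzmg*, *Gzmk* and *Gzmm* and the perforin gene *Prf1*, 10 of the 15981 genes that at least 1 of the tables used here could list. They are all rows with these gene symbols, and the rule uses no measured value. The cells were Thy1.1+ Pmel-1 CD8+ T cells on the B6 background, whose transgenic receptor recognizes a melanoma antigen. They spent 5 days in culture. Polarization came first, with IL-2 for Tc1 cells or with IL-4, TGF-β and an antibody against IFN-γ for Tc9 cells, and both were then kept in medium with IL-2. The study describes priming through CD3 and CD28, or with peptide in some experiments, and does not say which was used here. They were then injected into Thy1.2+ B6 mice that carried 10-day subcutaneous B16 melanomas. All hosts also received cyclophosphamide, peptide-pulsed dendritic cells and IL-2. Transferred cells were sorted from the tumors 14 days after injection, and RNA was pooled into 2 libraries for Tc1 and 2 for Tc9 cells. The study names 6 mice without saying whether that is per group or in all, and the number behind a library is not stated, so the spread between libraries may be partly technical. The question put to these genes is whether tumor-infiltrating Tc9 and Tc1 cells differ in the transcripts of the granule killing machinery.

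In a killer cell, granules move to the contact with a target cell and fuse with the membrane. Perforin then opens pores through which granzymes reach the target's cytosol. Granzyme B cuts after aspartate and starts apoptosis through caspases and other substrates, and granzyme A has trypsin-like activity and acts on other targets. Granzymes C, D, E, F and G are rodent proteases encoded beside granzyme B, and granzymes K and M are encoded elsewhere. Effector T cells protect themselves from leaked granzyme B with the serpin encoded by *Serpinb9*.

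The tables used here list genes in the character order of a numeric identifier, and each stops at a different point of that order. No table lists a gene at 0, so an unlisted gene that a table's order reaches was set to 0 counts. The table of Tc1 replicate 1 reaches none of the 10 genes. Tc1 replicate 2 and both Tc9 libraries reach the 9 granzymes, and the replicate 2 libraries alone reach *Prf1*. In what follows, the Tc1 library is Tc1 replicate 2 and the Tc9 libraries are replicates 1 and 2, in that order, unless 4 libraries are named. Every granzyme comparison therefore sets 2 Tc9 libraries against 1 Tc1 library, and the perforin comparison sets 1 against 1. Library depth was between 30822953 and 31927162 counts, at which 3 counts correspond to between 0.0940 and 0.0973 CPM (counts scaled to library size). In these bulk samples, a lower level can come from fewer cells that express a gene or from less RNA per cell, and these cannot be told apart.

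*Gzmb* made up nearly all granzyme RNA in both cell types. The major difference in abundance was in this gene, which was lower in Tc9 cells, and *Gzma* went the other way. Among the 7 granzymes with enough counts for edgeR's quasi-likelihood test over 3 libraries, 1 rose (*Gzma*) and 4 fell (*Gzmb*, *Gzmc*, *Gzmd* and *Gzme*) in Tc9 cells at an adjusted p under 0.05. Over all 2622 genes tested in the same fit, 20.4% were called, 12.5% higher and 7.93% lower, and the median log2 fold change was 0.02. *Gzmd* and *Gzme* passed the count filter only through the Tc1 library, where they are high. Their calls partly restate the filter and give no support of their own. The remaining granzymes were *Gzmf* and *Gzmm*, which did not pass, and *Gzmg* and *Gzmk*, which had too few counts for the fit. *Prf1* was lower in the single pair of libraries that reached it. A limit applies to every call named here and below from this fit. With 1 Tc1 library the only residual spread is between the 2 Tc9 libraries, and with no filter on low counts none of the granzymes, and none of the other genes of the fit, was called (611 genes then had an unadjusted p under 0.05, and 825 with the filter).

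**Figure D1:**
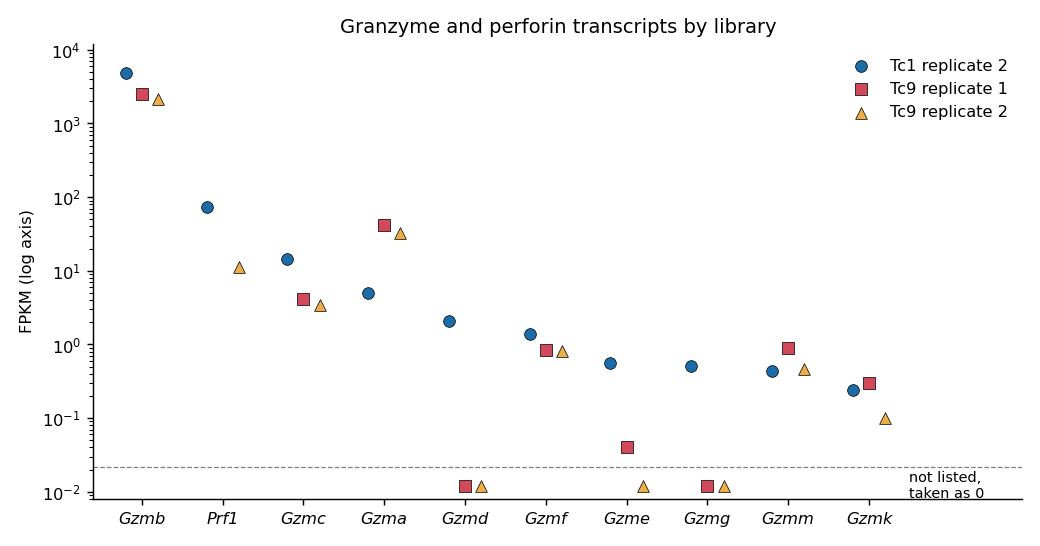
The level of each gene in each library that reached it, as FPKM (fragments scaled to gene length and library size) on a log axis, with 1 point per library; points under the dashed line were not listed and stand for 0. *Gzmb* lies 2 powers of 10 or more above the other granzymes in the Tc1 library, and *Gzma* is the gene whose 2 Tc9 points both lie several-fold above the Tc1 point.

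The genes fall into a cluster and 4 separate positions in the mouse genome (GRCm38.p6). *Gzmb* to *Gzme* lie within 145 kb at chr14:56117619-56262334, a stretch that holds 7 granzyme genes in RefSeq, 6 of which are among the 10 genes. *Gzma* (chr13:113093824-113100981) and *Gzmk* (chr13:113171630-113180965) are neighbours. *Gzmm* lies at chr10:79689020-79695261 and *Prf1* at chr10:61297751-61304684. All 10 symbols had an entry among the RefSeq promoter windows, with 11 windows in all because *Gzmm* has 2. The 250 bases before the start of 4 genes that differed are shown, and others that were lower, such as *Gzmc*, are left out. *Gzmb* was the most abundant gene that fell, and *Gzmd* was a cluster gene with no Tc9 count, as was *Gzmg*. *Gzma* was the gene that rose, and *Prf1* lies outside both granzyme groups. Each is written 5′ to 3′ on the strand of its gene and ends at the base before the transcript start that RefSeq's promoter window uses. That start lies 85 bases inside the outermost gene bound for *Prf1* and 10 bases inside it for *Gzmd*, so those windows overlap the gene's widest extent, and it is the bound itself for *Gzmb* and *Gzma*. They lie at chr14:56262335-56262584 (minus strand) for *Gzmb*, chr14:56132594-56132843 (minus strand) for *Gzmd*, chr13:113100982-113101231 (minus strand) for *Gzma* and chr10:61297586-61297835 (plus strand) for *Prf1*. Capitals mark the RUNX core TGTGGT, read on either strand (ACCACA on the other), and in *Gzmb* also an AP-1 site TGANTCA.
Gzmb: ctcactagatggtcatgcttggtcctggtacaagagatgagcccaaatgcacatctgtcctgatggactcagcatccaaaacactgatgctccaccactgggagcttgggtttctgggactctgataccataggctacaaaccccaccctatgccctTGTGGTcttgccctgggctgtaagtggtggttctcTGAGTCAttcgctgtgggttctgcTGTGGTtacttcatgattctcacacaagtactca
Gzmd: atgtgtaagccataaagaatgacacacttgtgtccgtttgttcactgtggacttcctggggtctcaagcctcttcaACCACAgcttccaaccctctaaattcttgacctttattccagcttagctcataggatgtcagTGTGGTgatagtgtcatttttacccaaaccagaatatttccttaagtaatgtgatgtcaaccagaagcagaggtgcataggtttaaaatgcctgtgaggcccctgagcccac
Gzma: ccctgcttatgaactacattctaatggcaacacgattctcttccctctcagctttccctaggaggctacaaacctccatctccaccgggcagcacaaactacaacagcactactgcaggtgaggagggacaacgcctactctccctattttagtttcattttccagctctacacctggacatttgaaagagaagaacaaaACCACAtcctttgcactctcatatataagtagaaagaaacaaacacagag
Prf1: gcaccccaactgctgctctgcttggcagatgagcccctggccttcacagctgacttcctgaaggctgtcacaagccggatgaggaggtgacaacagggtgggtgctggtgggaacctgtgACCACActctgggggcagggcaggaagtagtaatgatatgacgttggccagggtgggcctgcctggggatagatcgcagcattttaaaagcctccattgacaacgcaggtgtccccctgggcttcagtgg
The RUNX core was present in 9 of the 11 windows of the 10 genes and in 14.0% of all 32851 windows of this length. RUNX factors act in CD8+ T cell development and effector function. In the *Gzmb* window the core lay 93 to 88 and 34 to 29 bases before the start, with the AP-1 match between them at 58 to 52. The window of *Gzma*, which rose, held the core at 50 to 45 bases and that of *Prf1* at 130 to 125. The cluster genes *Gzmc*, *Gzmd*, *Gzme*, *Gzmf* and *Gzmg* each held it at 2 positions. These neighbours have similar transcript sequences, so their windows are not independent. The share of windows with the core is therefore no measure of enrichment.

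A cAMP response element, TGACGTCA, was found in the windows of *Gzmc*, *Gzmf* and *Gzmg* and in 1.55% of all windows. These are neighbours of the same cluster, so their matches are not independent either. The AP-1 letters were found in *Gzmb* only among the 11 windows and in 6.75% of all windows. A T-box site, AGGTGTGA, was in none of the 11 windows and in 1.12% of all, and the STAT letters TTCNNNGAA were in 1 window, of *Gzmm*, and in 7.02% of all. All motifs were searched on both strands, and none of these matches shows binding of a factor.

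Granzyme B, the main killer protease of cytotoxic T cells, had 215770 counts in the Tc1 library against 108448 and 92856 in the Tc9 libraries. Both Tc9 libraries lay well below the Tc1 library, and they differed from each other by 0.23 on the log2 scale. The log2 fold change was -1.13 (SE 0.18), a 2.19-fold lower level, with an adjusted p of 2.10e-08 by edgeR's quasi-likelihood test. The change lay between -1.26 and -1.01 over all alternatives, and the adjusted p was at most 0.0295 in all of them but the one without a filter, where it was 0.150. The transcript stayed abundant in Tc9 cells. By FPKM it ranked 3rd of 3467 genes in the Tc1 library and 6th and 12th in Tc9 replicates 1 and 2, and it ranked 28th of all genes in the complete table of Tc9 replicate 2. It took 0.676% of all counts of the Tc1 library and 0.349% and 0.301% of those of the Tc9 libraries.

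Relative to the other granzymes, *Gzmb* gave 99.5% of the summed granzyme FPKM in the Tc1 library, and 98.1% and 98.3% in the Tc9 libraries. The sum itself was 4908 in the Tc1 library and 2561 and 2207 in the Tc9 libraries, so the order of the libraries in total granzyme RNA is that of *Gzmb*. The share of *Gzma* was 0.101% in the Tc1 library and 1.64% and 1.48% in the Tc9 libraries. The ratio of *Gzmb* to *Gzma* FPKM was 983 in the Tc1 library and 59.6 and 66.2 in the Tc9 libraries, a lower value in both Tc9 libraries. Of 29 genes within 4-fold of the level of *Gzmb*, those whose log2 CPM over the 3 libraries lay nearest to it were the chaperone genes *Hsp90ab1* (distance 0.65) and *Hspa8* (0.80) and the actin gene *Actb* (0.94). This distance counts level as well as pattern.

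**Figure D2:**
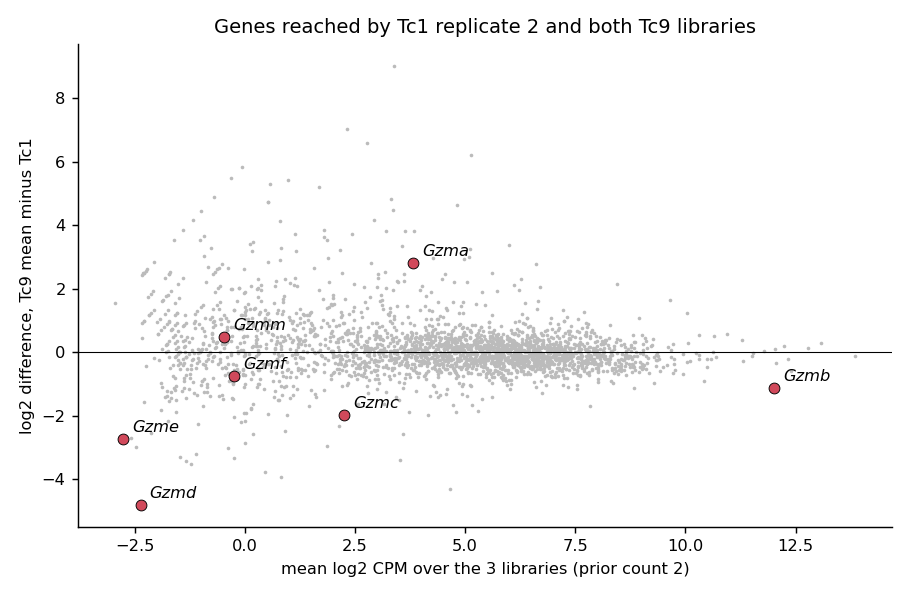
The log2 difference between the mean of the 2 Tc9 libraries and Tc1 replicate 2 against the mean log2 CPM over the 3 libraries, with 1 grey point for each of 2622 genes tested and the 7 granzymes of the fit in red. *Gzmb* lies at the far right among the most abundant genes and below 0, *Gzma* lies above most genes of its level, and *Gzmd* and *Gzme* lie at the low end of the level axis, where points spread widely; their plotted height depends on the prior count of 2.

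Granzyme C, encoded next to *Gzmb*, had 363 counts in the Tc1 library against 102 and 84 in the Tc9 libraries. Both Tc9 libraries were low, and they differed from each other by 0.28 on the log2 scale. The log2 fold change was -1.99 (SE 0.27), a 3.98-fold lower level, with an adjusted p of 9.54e-12 by edgeR's quasi-likelihood test. Over the alternatives the change lay between -2.12 and -1.69, and the adjusted p was at most 0.00945 except without the filter, where it was 0.136.

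Granzyme D had 53 counts in the Tc1 library and was not listed in either Tc9 library. With both Tc9 libraries at 0, the level was at least 17.9-fold lower, taking 3 counts per library as the floor and TMM-scaled library sizes. This gene was called in the fits with a filter and not in the one without it. It passed the filter only through its count in the Tc1 library, so that call is no support for the fall. Granzyme E had 14 counts in the Tc1 library, 1 in Tc9 replicate 1 and none in Tc9 replicate 2. The ratio of its counts, with the Tc9 libraries pooled, was -4.84 on the log2 scale with a 95% interval of -7.41 to -2.26 (Wilson, counting error only). Granzyme E was called in the 3-library fit and not without the filter. It too passed the filter only through the Tc1 library, so that call is no support for the fall. A minimum of 50 counts removed this gene from the fit. Granzyme G had 13 counts in the Tc1 library and was not listed in either Tc9 library, too few for the fit, and was at least 4.40-fold lower by the same floor.

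Granzyme F had the smallest fitted change of the cluster genes, and a difference between genes was not tested. It had 35 counts in the Tc1 library and 21 and 20 in the Tc9 libraries. The Tc9 libraries were again both lower, but the log2 fold change of -0.80 (SE 0.50) had an adjusted p of 0.271 by edgeR's quasi-likelihood test. The counting interval of the pooled ratio, -1.45 to -0.15, does not include the spread between libraries.

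All 6 cluster genes were thus lower in both Tc9 libraries than in the Tc1 library. *Gzmb* and *Gzmc* passed the test and *Gzmf* did not. *Gzmd* and *Gzme* entered the fit only through the Tc1 library, so their calls are not counted here. Lying on 1 side of a lone Tc1 library is common in this design, with 40% of all genes tested lower and 41.8% higher in both Tc9 libraries. The seventh granzyme gene there, *Gzmn*, which is not among the 10, was not listed by either library that reached it. FPKM fell with distance along the first part of the cluster and not beyond it. In the Tc1 library it was 4883 for *Gzmb*, 14.3 for *Gzmc* 20.7 kb away, 1.39 for *Gzmf* at 50.9 kb, 0.51 for *Gzmg* at 103 kb, 2.10 for *Gzmd* at 130 kb and 0.56 for *Gzme* at 142 kb. The low values of the distal genes share an uncertainty of assignment. The transcripts of *Gzmd* and *Gzme* are 94.8% identical, those of *Gzme* and *Gzmg* 90.8% and those of *Gzmd* and *Gzmg* 90.5%. Between 19.8% and 21.9% of the 50-base windows in each of these 3 transcripts also occur in another gene, against 7.36% for *Gzmf*, 4.14% for *Gzmc* and none for *Gzmb*, *Gzma*, *Gzmk*, *Gzmm* and *Prf1*. The read length is not given in the sources used here, so the assignment of reads among *Gzmd*, *Gzme* and *Gzmg* may be uncertain. Their expected counts were whole numbers in each library that reached them. How shared reads were assigned was not tested. Proteases of the same locus that mark mast cells, basophils and neutrophils were near 0. Of 6 such genes 4 were not listed by any table that reached them, and the others, *Mcpt1* and *Mcpt8*, had 1 and 2 counts in the Tc1 library and none in the Tc9 libraries.

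**Figure D3:**
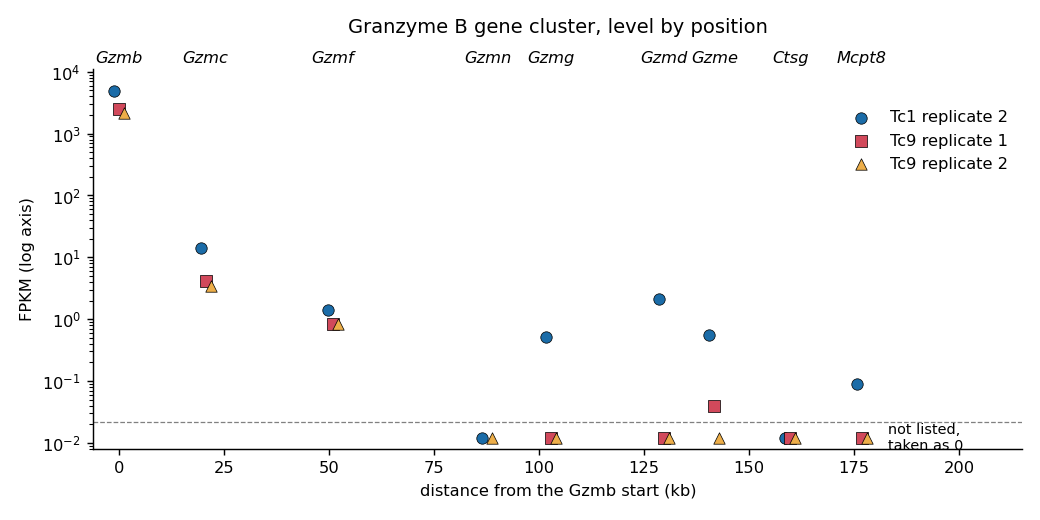
The FPKM of each granzyme of the chromosome 14 cluster on a log axis, against the distance of its start from the start of *Gzmb* in kb, with the next 2 protease genes *Ctsg* and *Mcpt8* at the right; the points of a gene are set slightly apart, and points under the dashed line were not listed and stand for 0 (*Gzmn* was not reached by Tc9 replicate 1). At each of the 6 granzymes with counts the Tc1 point is the highest, and *Gzmd* and *Gzmg* have no Tc9 count.

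Granzyme A, the trypsin-like protease encoded on chromosome 13, had 116 counts in the Tc1 library against 965 and 746 in the Tc9 libraries. Both Tc9 libraries were several-fold higher, and they differed from each other by 0.38 on the log2 scale. The log2 fold change was 2.85 (SE 0.30), a 7.23-fold higher level, with an adjusted p of 1.61e-19 by edgeR's quasi-likelihood test. Over the alternatives the change lay between 2.62 and 3.01, and the adjusted p was at most 0.00445 with a filter and 0.136 without. In FPKM the level rose from 4.97 to 42.1 and 32.8. The gene stood at rank 1587 of 3467 in the Tc1 library and at 538 and 676 in the Tc9 libraries, and it stayed far below *Gzmb* in each of them.

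Its neighbour *Gzmk*, a protease of the same trypsin-like kind, was at the limit of detection. It had 5 counts in the Tc1 library and 6 and 2 in the Tc9 libraries, and the groups overlapped. The pooled log2 ratio was -0.35 with a counting interval of -1.89 to 1.19, so no difference was detectable at this depth. Granzyme M, a protease known mainly from NK cells, had 16 counts in the Tc1 library and 32 and 17 in the Tc9 libraries. The 2 Tc9 libraries differed from each other by 0.85 on the log2 scale, more than the fitted change of 0.58 (SE 0.57, adjusted p 0.521 by edgeR's quasi-likelihood test).

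Perforin, the pore former that granzymes need to enter a target, was compared in 1 library per group and has no replicate check. *Prf1* had 4756 counts (73.7 FPKM) in Tc1 replicate 2 and 712 counts (11.4 FPKM) in Tc9 replicate 2. The level was 6.80-fold lower in the Tc9 library, a log2 ratio of -2.77 with a 95% interval of -2.88 to -2.66 (Wilson, counting error only). Among all 6161 genes with enough counts in this pair, 5.02% were over 2-fold lower and 10.1% over 2-fold higher in the Tc9 library, and 34 genes had a ratio at or below that of *Prf1*. Of the 882 genes with at least as many Tc1 counts as *Prf1*, 1 had a lower ratio. The ratio of *Gzmb* to *Prf1* FPKM was 66.3 in the Tc1 library and 191 in the Tc9 library, so *Prf1* was lower by more than *Gzmb* within this pair. In the same pair the log2 ratio of *Gzmb* was -1.25.

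**Figure D4:**
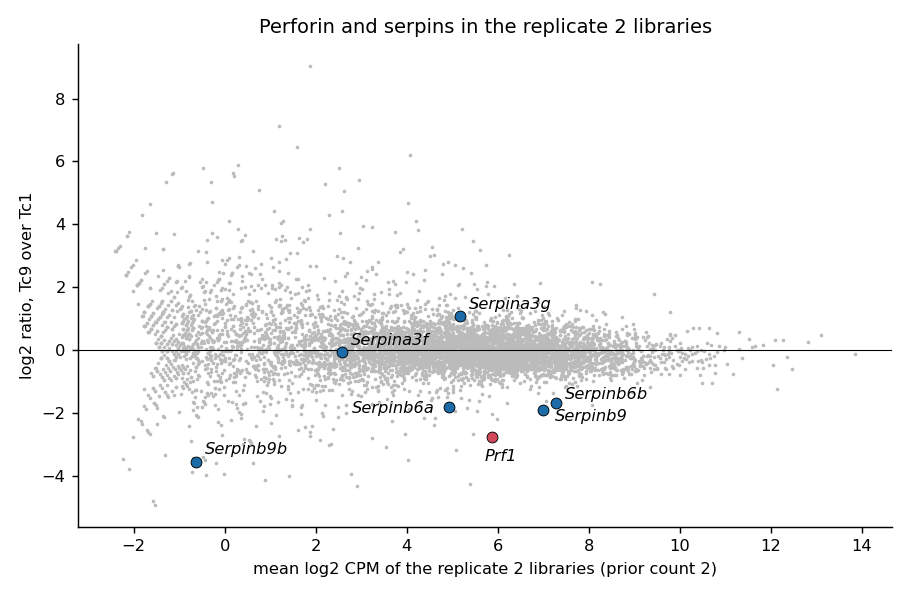
The log2 ratio of Tc9 replicate 2 over Tc1 replicate 2 against their mean log2 CPM (prior count 2), with 1 grey point for each of 6161 genes, *Prf1* in red and 6 serpin genes in blue. *Prf1* lies below nearly all genes of its level, *Serpinb9*, *Serpinb6a* and *Serpinb6b* lie about 2 log2 units or slightly less below 0, and *Serpina3g* lies above it.

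Inhibitors of granzymes and related proteases lay on both sides of 0, most of them seen in a single library per group and without a test. The granzyme B inhibitor *Serpinb9* had 7611 counts in the Tc1 and 2078 in the Tc9 library of this pair, which is -1.90 on the log2 scale (-1.97 to -1.83 by counting error). The ratio of *Gzmb* to *Serpinb9* FPKM was 72.2 in the Tc1 library and 110 in the Tc9 library. The related serpins *Serpinb6a*, *Serpinb6b* and *Serpinb9b*, singled out after their values were seen, had log2 ratios of -1.82, -1.67 and -3.55 in the same pair, the last from 67 and 4 counts. *Serpina3g*, singled out in the same way, had 769 and 1654 counts and a ratio of 1.07. In all, 4 of the 6 inhibitor genes seen in this pair alone were over 2-fold lower in the Tc9 library and 1 was over 2-fold higher, against 5.02% and 10.1% of all genes in that pair. *Serpinb1a*, also singled out after its values were seen, was reached by Tc9 replicate 2 only, with 6 counts. The inhibitors of the list that all 3 libraries reached are the paralogs *Ctla2a* and *Ctla2b*, which encode inhibitors of cysteine cathepsins and not of granzymes. *Ctla2a* had 816 counts in the Tc1 library against 5110 and 3395 in the Tc9 libraries. Both genes rose in the 3-library fit, *Ctla2a* by 2.35 (SE 0.29, adjusted p 5.47e-14, edgeR) and *Ctla2b* by 1.84 (SE 0.29, adjusted p 9.50e-09, edgeR) on the log2 scale. They are near-identical copies of each other and their expected counts were not whole, so the split between them is uncertain.

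The genes that load, process and release granules held 1 call in the 3-library fit. Of 8 granule matrix and processing genes in the 3-library fit, 1 rose and none fell, with a median log2 fold change of 0.13, beside 12.5% higher and 7.93% lower among all genes tested. The gene that rose was *Ctsw*, a cathepsin of cytotoxic lymphocytes, with 1580 counts in the Tc1 library against 3142 and 3766 in the Tc9 libraries (1.10 on the log2 scale, SE 0.27, adjusted p 0.00053, edgeR). *Ctsc*, the dipeptidyl peptidase that activates progranzymes, had 4327 counts in the Tc1 library and 3422 and 3166 in the Tc9 libraries (-0.42, adjusted p 0.248). *Srgn*, whose proteoglycan core binds granzymes in the granule, had 12702 and 12232 counts in the replicate 2 libraries, a log2 ratio of -0.08. In the range of all 4 libraries, *Calr*, which encodes the chaperone calreticulin found with perforin in granules, had 28306 and 28310 counts in the Tc1 libraries against 21687 and 22233 in the Tc9 libraries, a small change of -0.36 with an adjusted p of 0.0157 by edgeR. That call was lost without either Tc1 library (adjusted p 0.244 and 0.289).

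Of 5 granule exocytosis genes in the 3-library fit, none passed the test, with a median of -0.13, and of 12 seen in the replicate 2 pair none differed by over 2-fold. Over all genes 20.4% were called in the fit, and 10.1% were over 2-fold higher and 5.02% over 2-fold lower in the pair, so counts of 0 among so few genes are no result about them. *Rab27a*, the GTPase that docks granules at the membrane, had 2309 and 2307 counts in the Tc1 libraries against 2091 and 1789 in the Tc9 libraries (-0.25 on the log2 scale, adjusted p 0.135, edgeR, 4 libraries). *Ap3b1*, an adaptor subunit for sorting to lysosome-related organelles, had 3655 and 3892 counts in the Tc1 libraries against 2761 and 2496 in the Tc9 libraries. It was lower in the 4-library fit, with a log2 fold change of -0.52 (adjusted p 0.00734, edgeR), a call lost without either Tc1 library (adjusted p 0.109 and 0.247).

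Among 5 fitted genes of transcription factors that have been reported to act on granzyme or perforin genes, 1 rose and 1 fell, with a median of 0.12. *Irf4*, a factor of T cell activation, had 18150 counts in the Tc1 library and 44730 and 42747 in the Tc9 libraries, and rose by 1.24 (SE 0.24, adjusted p 3.91e-06, edgeR). *Prdm1*, which encodes the effector differentiation factor Blimp-1, was reached by all 4 libraries, with 336 and 359 counts in the Tc1 libraries against 89 and 108 in the Tc9 libraries. It fell in the 4-library fit, with a log2 fold change of -1.81 (adjusted p 3.96e-05, edgeR), and the call held in all 9 alternatives. *Eomes*, a T-box factor of cytotoxic and memory cells, had 2965 counts in the Tc1 library and 2074 and 1886 in the Tc9 libraries, a change of -0.61 that did not pass (adjusted p 0.0661, edgeR). Over these pathway lists together, 20 genes were fitted, of which 4 rose and 1 fell, beside the 20.4% called among all genes.

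**Figure D5:**
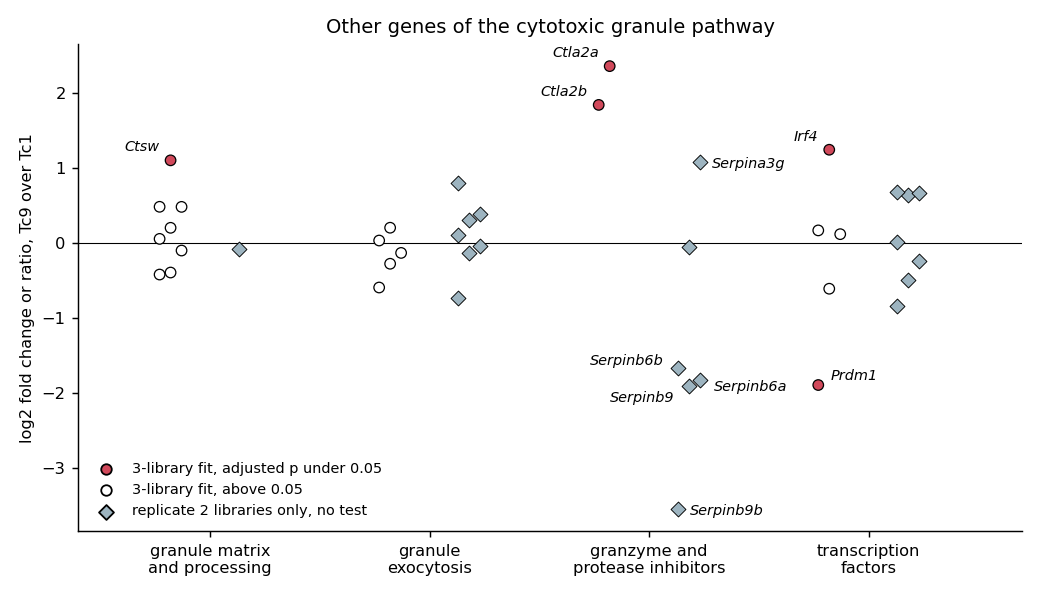
The log2 fold change or ratio of Tc9 over Tc1 for the other genes of the granule pathway, 1 point per gene in 4 lists; circles come from the 3-library fit (red where the adjusted p was under 0.05) and grey diamonds are ratios of the replicate 2 libraries with no test. The exocytosis genes lie within 1 log2 unit of 0, and the inhibitors are split, with *Ctla2a* and *Ctla2b* above and 4 *Serpinb* genes below.

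Defining markers of CD8+ T cells were abundant in every library. The 8 such markers reached by 3 libraries summed to 73981 counts in the Tc1 library and 75793 and 78676 in the Tc9 libraries. Of 7 fitted over 4 libraries, *Cd3e* (0.73, adjusted p 0.0108, edgeR) and *Cd3g* (0.49, adjusted p 0.00995, edgeR) were higher and *Cd2* (-0.44, adjusted p 0.0107, edgeR) was lower on the log2 scale, beside 34.1% of all genes called in that fit. Each of these calls was lost in 2 of 9 alternatives (adjusted p up to 0.0771, 0.250 and 0.346). *Cd8a* had 21622 and 21532 counts in the Tc1 libraries against 21166 and 19330 in the Tc9 libraries. NK cells also hold granzymes and perforin, and the summed counts of their markers were lower in the Tc9 libraries. Of the NK markers that the 3 libraries reached, only *Fcer1g* and *Eomes* had enough counts for the fit, and *Eomes* did not pass. Apart from *Eomes*, 4 NK markers reached by the 3 libraries summed to 132 counts in the Tc1 library and 26 and 14 in the Tc9 libraries. Most of these were *Fcer1g* (114, 24 and 13 counts), which fell in the 3-library fit (log2 fold change -2.64, adjusted p 1.21e-09, edgeR), and the others were *Klrb1c* (8, 1 and 0), *Klra8* (7, 0 and 0) and *Ncr1* (3, 1 and 1). *Tyrobp* had 7 and 0 counts in the replicate 2 libraries. Of 9 mast cell and basophil markers 7 had at most 3 counts in each of these libraries, and the list summed to 156, 406 and 382 counts, most of them *Kit* (142, 389 and 366), which rose (1.38, adjusted p 1.78e-05, edgeR). Sums over 11 myeloid markers were 309, 392 and 470 counts in the same order, and *Lyz2* had 0, 3 and 0. Most of that sum was *Cd68* (221, 358 and 439), which rose in the 4-library fit (0.84, adjusted p 0.00295, edgeR), whereas its 3-library call held in 3 of 8 alternatives, while *Mpeg1* (65, 19 and 11) fell (-2.13, adjusted p 5.17e-05, edgeR). Those of 4 B cell markers were 170, 399 and 486. *Cd4* had 50 and 45 counts in the Tc1 libraries against 56 and 58 in the Tc9 libraries, while *Foxp3*, the regulatory T cell factor, had 34.6 and 1592 counts in the replicate 2 libraries. The other members of that list did not follow *Foxp3*. *Ctla4* had 4598 and 5109 counts in the Tc1 libraries against 6953 and 5324 in the Tc9 libraries. *Cd40lg* had 11 and 2 counts in the replicate 2 libraries, Tc1 first. Of the melanocyte genes, *Tyrp1*, *Dct* and *Sox10* were not listed by any table that reached them, and *Mitf* had 6, 7 and 5 counts. In the replicate 2 libraries *Pmel* had 70.0 and 117 counts (log2 ratio 0.70, counting interval 0.30 to 1.16) and *Tyr* had 6 and 12.9. The part of these marker levels in the granzyme and perforin differences was not tested.

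In the range of all 4 libraries, which holds none of the 10 genes, 438 of 1284 genes (34.1%) were called with all 4 libraries and 201 without Tc1 replicate 1. The fits share 3 libraries, so their overlap is no independent check of calls made with a lone Tc1 library. The 2 Tc1 libraries differed in this range by a median of 0.0752 log2 units per gene, and 95% of genes differed by less than 0.518, against 0.218 and 0.666 for the Tc9 libraries. The changes of *Gzma*, *Gzmb* and *Gzmc* are larger than these spreads. How *Gzma* to *Gzmm* varied between Tc1 libraries was not measured.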

How the data were processed

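RNA-Seq tables of 2 Tc1 and 2 Tc9 libraries were used. The authors deposited, per gene and library, an expected count without normalization and an FPKM value scaled by gene length and library fragments. The submitters' processing notes name mm10, and the aligner and counting program are not given in the sources used here. All sample columns were used. Gene positions and promoter windows came from RefSeq GRCm38.p6.

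The depth of libraries whose tables stop early was taken from the median ratio of count to FPKM and length, relative to Tc9 replicate 2, over 296, 1330 and 616 genes with at least 500 counts (Tc1 replicates 1 and 2, Tc9 replicate 1). Rounded expected counts were scaled by TMM (factors 0.967, 1.01 and 1.03 for Tc1 replicate 2 and Tc9 replicates 1 and 2) and tested two-sided with edgeR 4.0.16 (quasi-likelihood, R 4.3.3) after a filter at a minimum count of 10. P-values were adjusted by Benjamini-Hochberg over all genes fitted, with a threshold of 0.05. Alternatives used DESeq2 1.42.0, limma 3.58.1 on log2(FPKM + 1) or log2(FPKM + 0.1), other factors, no filter and a minimum of 50 counts. The 3-library fit had 1 residual degree of freedom, so its p-values rest on a spread pooled over genes. No molecular identifiers are described, and reads are then not independent molecules, so intervals and the floor of 3 counts cover counting error alone. Scripts were tested on simulated counts.

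The genes and the pathway and marker lists were chosen with earlier results of these data known. Beyond the 10 genes, those named are genes of the granule pathway lists called in either fit (up to 4 a list by size of change), *Srgn*, *Ctsc*, *Rab27a*, *Serpinb9*, *Nkg7*, *Tbx21* and *Eomes* in any case, and the 3 genes nearest in level to *Gzmb*. The other serpins, the chymase-locus genes and the single marker genes were named after their values were seen. The replicate numbers of the labels were not found to pair libraries, since the deviations of same-numbered libraries from their group means correlated at -0.0645.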

Additional observations from a re-analysis of the deposited data

How the results depend on the processing

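*Gzmd* and *Gzme* passed the count filter only through the Tc1 library, so their calls are no support in any filtered fit. The calls for *Gzma*, *Gzmb*, *Gzmc* and *Gzmd* kept direction and side of the threshold in 7 of 8 alternatives to the 3-library test. That for *Gzme* did so in 5 of the 6 that gave it a p. The exception was the fit with no filter on low counts, which called no granzyme, no other granule gene and no gene of the range in either direction (0 higher and 0 lower, against 1 and 4 granzymes, 4 and 1 granule genes, and 327 and 208 genes in all). Over all genes of that range the calls were 217 higher and 121 lower with DESeq2, 197 and 84 with the TMM factors of the 4-library range, 197 and 78 with limma on log2(FPKM + 0.1), and 510 and 413 with the dispersion trend of the 4-library range, which also called 5 granule genes higher and 5 lower. With limma on log2(FPKM + 1), 112 genes were lower. The granule genes that passed with that dispersion trend and not in the main test were *Ctsc* (adjusted p 0.0382), *Eomes* (0.00191), *Ap3b1* (0.00227) and *Calr* (0.0418), all lower, and *Cst7* (0.0222), which was higher and was named after its values were seen. The cause was not tested.

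In the range of all 4 libraries, leaving out each library in turn, each of which moved the counts by over 1.5 times, gave between 99 and 424 genes higher and between 74 and 430 lower, against 224 and 214, with the lone library taken to vary like the other group. The low ends came without Tc1 replicate 2 and the high ends without Tc9 replicate 1. With no filter 139 were lower. *Rab27a* passed without Tc9 replicate 1 (-0.37 on the log2 scale). A replicate block gave 231 higher and 213 lower there, 406 of them shared with the 438 calls, and no granzyme could be given a blocked fit because Tc1 replicate 1 reaches none. Leaving out a Tc9 library in the 3-library range leaves 1 library against 1, a value with no test, and kept the direction of each granzyme of that fit that it could give.

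The *Prf1* ratio was -2.59 on the log2(FPKM + 1) scale, against -2.77. The *Gzmb* share of granzyme RNA by expected counts was 99.7% in the Tc1 library and 99.0% and 99.1% in the Tc9 libraries. Depth limits *Gzmk*, *Gzmg*, *Gzme*, *Gzmf* and *Gzmm*, each with fewer than 40 counts a library.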

Other observations

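Genes of the granule pathway that the table of Tc9 replicate 2 alone reaches could not be compared. In that library *Nkg7*, which encodes a granule membrane protein of cytotoxic cells, had 5679 counts, *Tbx21*, which encodes the T-box factor T-bet, had 4319, and the exocytosis genes *Unc13d* and *Stx11*, named after their values were seen, had 3395 and 1027. In the whole of that table *Gzma* ranked 2573rd and *Prf1* 5561st by FPKM, and *Gzmb* 28th.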
